A study of Mus musculus with 53 samples.

Results

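The 8 genes Pmp22, Mbp, Mag, Prx, Cnp, Mal, Pllp and Ncmap encode components of the peripheral myelin sheath and were followed in RNA-seq of mouse sciatic nerve (SCN). They were chosen by their symbols as components of compact and non-compact myelin, with earlier results of these data known. All 8 were found among the 49568 genes listed. The nerves came from male C57BL/6J mice, with 53 samples in 8 groups at 16 or 24 weeks of age. SD mice received a standard control diet and no streptozotocin (STZ), with 5 samples at 16 weeks and 8 at 24 weeks. HFD mice, the prediabetes model, ate a high-fat diet with 60% of its kcal as fat from 5 weeks of age and received no STZ, with 7 samples at each age. HFD-STZ mice, the model of type 2 diabetes (T2D), ate the same high-fat diet and were given STZ by intraperitoneal injection from 12 weeks of age, first 75 mg/kg and then 50 mg/kg, with 5 samples at 16 weeks and 8 at 24 weeks. For dietary reversal (DR), HFD-DR mice (7 samples) and HFD-STZ-DR mice (6 samples) were treated as HFD and HFD-STZ mice up to 16 weeks, returned to control diet for 8 weeks, and sampled at 24 weeks. STZ damages the insulin-producing cells of the pancreas. The nerve is a mixed tissue. A lower value in such bulk samples can come from fewer cells of a type, less RNA per cell, or a larger share of RNA from other cells. These cannot be told apart.

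Myelin in the sciatic nerve is made by Schwann cells, each of which wraps a single axon segment in many layers of membrane. In compact myelin the layers are pressed together by proteins of the membrane and of its cytoplasmic face, whereas non-compact myelin at the edges of the sheath and against the axon keeps cytoplasm, adhesion molecules and junctions. The sheath speeds nerve conduction, and mutations in several of the genes studied here cause inherited demyelinating neuropathies. Making myelin takes large amounts of cholesterol and of galactolipids as well as protein, and the transcription factors Sox10 and Egr2 drive many of its genes in Schwann cells.

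Expression was deposited as log2 values, and the number of reads behind each is unknown, so that the spread between samples is the only measure of precision. Pairs of samples correlated at 0.916 to 0.994 (Pearson, 18069 genes whose log2 values averaged 3.32 or more), and 3 libraries were the least like the rest, namely HFD-STZ replicate 7, HFD-STZ-DR replicate 4 and SD replicate 5, all at 24 weeks. Markers of the Schwann lineage were high throughout, with group means of the log2 value of Sox10 between 14.81 and 15.04. Of the defining markers of oligodendrocytes, the myelinating cells of the brain, Mog and Opalin had group means between 2.05 and 2.38 and between 1.36 and 1.67 on the log2 scale, below the limit of 3.32 set for testing. Others of that list were above it, with group means of 6.14 to 7.11 for Mobp and 6.23 to 7.10 for Hapln2. Adipocyte markers (Adipoq, Plin1, Cidec, Cfd, Lep and Fabp4) and skeletal muscle markers were present in every group, and their levels differed between samples. The mean of the 6 adipocyte markers, called the adipocyte score, ran from 8.36 to 14.45 over samples, and that of the 6 muscle markers from 6.76 to 17.11.

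The 8 genes lie on 6 chromosomes in mouse genome GRCm38 (GENCODE M21), and all are protein-coding. Pmp22, a tetraspan membrane protein of compact myelin, is at chromosome 11 from 63128982 to 63159547 on the plus strand, and Cnp, the cyclic nucleotide phosphodiesterase of cytoplasm-filled myelin, is on the same chromosome and strand from 100574904 to 100591729. Prx (chromosome 7, 27499324 to 27520214, plus strand) encodes periaxin, which anchors the outer Schwann cell membrane to the basal lamina, and Mag (chromosome 7, 30899176 to 30914873, minus strand) encodes myelin-associated glycoprotein, an adhesion molecule that faces the axon. Mal (chromosome 2, 127633226 to 127656695, minus strand) and Pllp (chromosome 8, 94674894 to 94696278, minus strand) encode small proteolipids of membrane trafficking, the second being plasmolipin. Ncmap (chromosome 4, 135369576 to 135398227, minus strand) encodes a protein of non-compact myelin. Mbp encodes myelin basic protein, which holds the cytoplasmic faces of compact myelin together. Exons of Pllp share 54.2% of their bases with Gm45767 on the opposite strand, those of Prx share 5.4% with Gm15541 and those of Cnp 4.2% with Dnajc7. The paper describes the libraries as non-stranded, in which case reads of the 2 strands cannot be told apart over the shared bases. No stretch of 100 bases of a member's longest transcript was found in transcripts of another gene.

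Pmp22, Mal, Cnp and Mag were among the members that varied together between samples, as described further on, and the sequence before a transcription start site of each is shown. Pllp and Ncmap varied with them as well and are not printed. Their median r with the other members was 0.87 and 0.83, compared with 0.82 for Mag. RefSeq promoters (GRCm38.p6) were available for 7 of the 8 genes, as 13 windows of 250 bases. In these, 2 sets of letters were searched on both strands, ACAAAG and ACAATG as those of SOX factors and GTGGGCG and GGGGGCG as those of EGR factors. The SOX letters were present in 3 of the 13 windows and the EGR letters in 2, compared with 25.2% and 19.7% of the 32851 promoter windows of all genes. In the sequences that follow, letters that match are in capitals, the bases read 5′ to 3′ towards the gene, and bases inside an annotated exon are left out.
Pmp22, chr11:63128732-63128981, plus strand: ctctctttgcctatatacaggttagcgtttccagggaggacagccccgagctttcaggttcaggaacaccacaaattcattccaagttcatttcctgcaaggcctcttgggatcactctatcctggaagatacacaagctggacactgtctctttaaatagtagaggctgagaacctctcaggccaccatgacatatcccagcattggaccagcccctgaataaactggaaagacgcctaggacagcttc
Mal, chr2:127656696-127656945, minus strand: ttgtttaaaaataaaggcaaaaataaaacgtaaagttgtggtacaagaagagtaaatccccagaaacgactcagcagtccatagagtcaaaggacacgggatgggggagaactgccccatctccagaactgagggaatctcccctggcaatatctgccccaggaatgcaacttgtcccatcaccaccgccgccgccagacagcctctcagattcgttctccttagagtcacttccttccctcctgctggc
Mag, chr7:30914923-30915172, minus strand: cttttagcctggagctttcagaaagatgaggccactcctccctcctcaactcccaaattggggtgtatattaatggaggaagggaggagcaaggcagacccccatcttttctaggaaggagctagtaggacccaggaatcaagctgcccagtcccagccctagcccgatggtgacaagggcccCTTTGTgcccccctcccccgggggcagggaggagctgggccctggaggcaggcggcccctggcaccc
Cnp, chr11:100574689-100574903, plus strand: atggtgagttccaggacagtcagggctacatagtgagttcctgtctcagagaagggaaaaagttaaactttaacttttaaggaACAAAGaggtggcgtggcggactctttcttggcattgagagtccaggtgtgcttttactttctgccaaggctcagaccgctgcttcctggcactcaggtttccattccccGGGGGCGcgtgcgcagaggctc
The Mag window held 1 SOX match, 67 to 62 bases before the start, on the opposite strand, and the same site was counted again in an overlapping Mag window. The Cnp window held a SOX match at 167 to 162 bases and an EGR match at 57 to 51 bases before the start, and a further EGR match at 7 to 1 bases lay in the exonic part that is not printed. The other window with EGR letters was that of a later Pmp22 start (63132553 to 63132802), 155 to 149 bases before it and inside an exon. Neither set of letters was found in the 2 windows printed for Pmp22 and Mal, which says only that these letters are not in these windows. The windows of Pllp, Ncmap and Prx, which are not printed, held no match either, so the printed windows do not stand for all.

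The 8 genes differed in level by many fold among themselves and by far less between groups. Corrected for the length of the exons (log2 value minus log2 of the exonic length in kb, averaged over the 53 samples), Pmp22 was highest at 18.94, followed by Mbp at 16.83 and Prx at 15.61. Cnp at 14.76 and Mal at 14.74 were close to each other, with Ncmap at 13.9, Mag at 11.54 and Pllp at 10.81 below them. The correction assumes that the deposited values were not already divided by length, as their scaling is not named. The lowest Pmp22 value of any sample, 19.51, is above 18.7, the log2 FPKM that Pmp22 would have if it took every read of a library. As deposited, without the correction, the means of Pmp22 and Mbp were 20.18 and 19.91. These levels per length compare genes, and all other values are deposited log2 values, which compare samples for the same gene.

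Between groups, the mean of SD mice at 16 weeks was the highest for 7 of the 8 genes, and that of HFD mice at 24 weeks the lowest for 7 of the 8. The exceptions were Prx, which was highest in HFD-STZ mice at 16 weeks, and Mbp, which was lowest in HFD-STZ mice at 24 weeks. For Pmp22, the order of group means ran from 20.61 ± 0.24 (SD, n = 5) in SD mice at 16 weeks through 20.4 ± 0.12 (n = 5) in HFD-STZ and 20.39 ± 0.18 (n = 7) in HFD mice of that age. It then passed at 24 weeks from 20.18 ± 0.21 (n = 6) in HFD-STZ-DR, 20.07 ± 0.26 (n = 8) in SD, 20.04 ± 0.27 (n = 8) in HFD-STZ and 19.99 ± 0.17 (n = 7) in HFD-DR to 19.96 ± 0.2 (n = 7) in HFD mice. Thus all 3 groups of 16 weeks stood above all 5 groups of 24 weeks for Pmp22. The same held for Mal, with 16-week means of 16.58 ± 0.2 (SD mice), 16.37 ± 0.12 (HFD-STZ) and 16.36 ± 0.18 (HFD) and 24-week means from 16.03 ± 0.23 (HFD) to 16.24 ± 0.21 (HFD-STZ-DR), and for Cnp, Mag and Pllp. In Mbp, Prx and Ncmap the ages were interleaved, the 24-week mean of SD mice for Mbp (19.97 ± 0.21) being above the 16-week mean of HFD mice (19.95 ± 0.18), for instance. The highest group mean exceeded the lowest by 1.57-fold for Pmp22, 1.46-fold for Mal, 1.41-fold for Mag and 1.39-fold for Mbp, and by 1.27-fold to 1.3-fold for Prx, Cnp, Pllp and Ncmap. No step between neighbouring group means, 7 for each gene, was larger than that gene's SD between samples of a group, which was 0.18 to 0.24. Each step is only a part of the range over the 8 groups, so this is no test of a difference between groups.

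**Figure D1:**
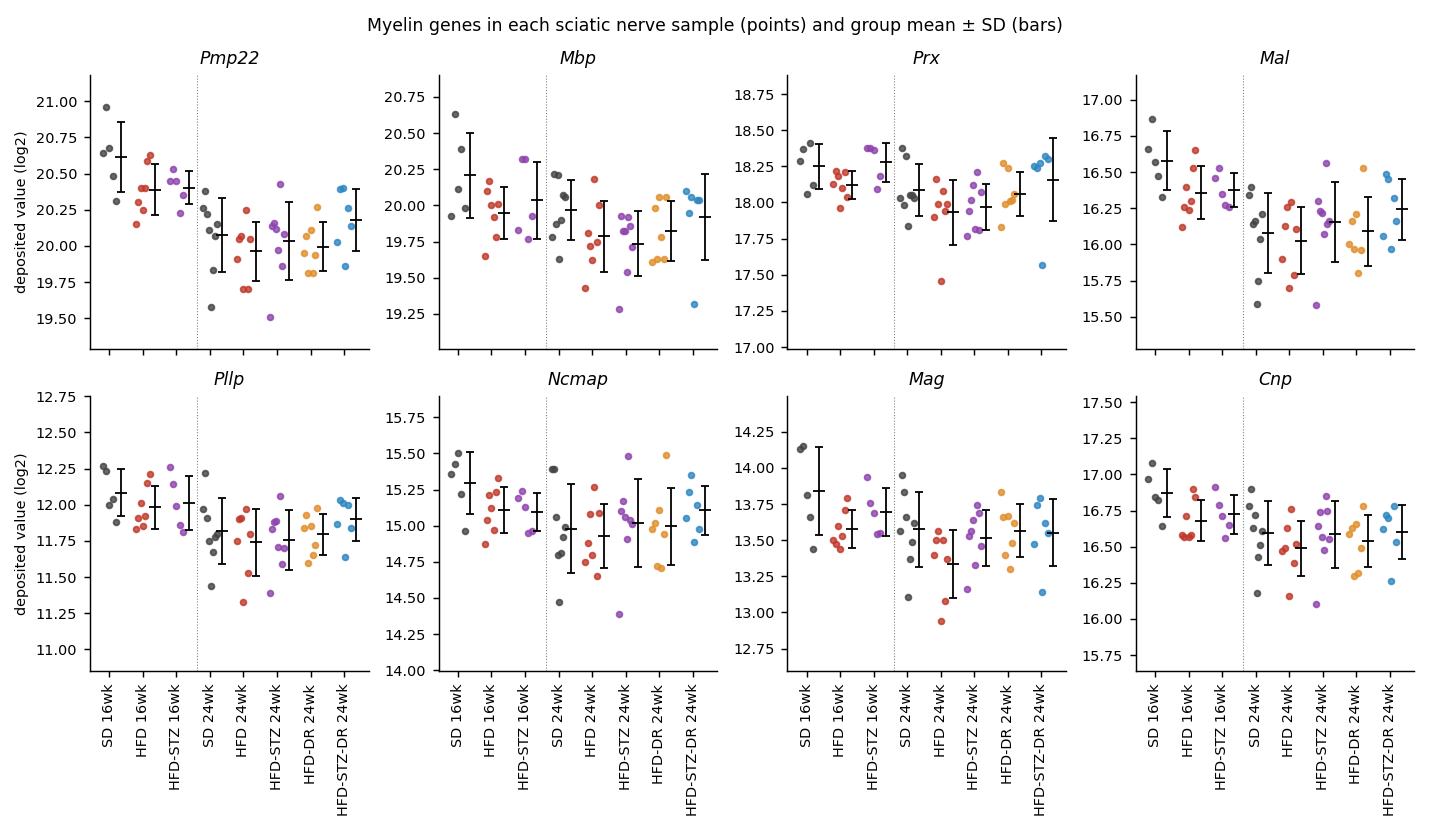
Deposited log2 values of the 8 myelin genes (1 panel each, all panels spanning the same log2 range) in the 53 samples, by group, with 16-week groups left of the dotted line. Points are samples and bars are the group mean ± SD; for Pmp22 the 16-week means (20.39 to 20.61) stand above the 24-week means (19.96 to 20.18), while samples of the 2 ages overlap.

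The question whether myelin transcripts differ between 16 and 24 weeks was put to each treatment separately, and all 8 genes had lower means at 24 weeks in SD, in HFD and in HFD-STZ mice, although none of the 8 reached an adjusted p under 0.05 in any of the 3. A fit of all 8 groups that added a term for the run of library numbers called 2 of the 8, Pmp22 and Mal, in SD mice, and 0.675% of all genes. In the SD mice themselves, Pmp22 was at 20.64, 20.96, 20.68, 20.48 and 20.31 in the 5 samples of 16 weeks, and its lowest, median and highest values over the 8 samples of 24 weeks were 19.58, 20.13 and 20.38. Of those 8 samples, 7 lay below every 16-week sample, and the groups overlapped only through the highest. The difference was -0.54 (SE 0.18; 0.689 times the 16-week level on the linear scale), with an exact permutation p = 0.00233 and an adjusted p = 0.435 over all genes. Mal stood at 16.66, 16.87, 16.57, 16.47 and 16.33 at 16 weeks and at 15.59, 16.15 and 16.4 (lowest, median, highest) at 24 weeks. The difference in Mal was -0.505 (SE 0.14), with 6 of the 8 later samples below all the earlier ones, an exact permutation p = 0.00466 and an adjusted p = 0.349. Cnp and Pllp differed less, by -0.28 (SE 0.12; adjusted p = 0.464) and -0.27 (SE 0.11; adjusted p = 0.459). The differences in Mbp, Mag, Prx and Ncmap lay between -0.16 and -0.31, with 95% intervals that reached 0. Thus 4 of the 8 genes were lower at an unadjusted p under 0.05 in SD mice, where 5.04% of the 17788 genes tested were, and 0% of all genes passed the adjusted threshold.

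In HFD mice, Pmp22 ran from 20.15 through a median of 20.4 to 20.63 at 16 weeks and from 19.7 through 20.05 to 20.25 at 24 weeks. Of the 7 later samples, 6 were below all earlier ones, and the difference was -0.43 (SE 0.16), with an exact permutation p = 0.00175 and an adjusted p = 0.793. Mal differed by -0.33 (SE 0.11; exact permutation p = 0.0146; adjusted p = 0.742), Mag by -0.24 (SE 0.10; exact permutation p = 0.0256; adjusted p = 0.808) and Pllp by -0.24 (SE 0.10; exact permutation p = 0.035; adjusted p = 0.808). Prx differed by -0.19 (SE 0.11; exact permutation p = 0.0326), with an unadjusted p = 0.116 in limma. Here too 4 of the 8 genes were lower at an unadjusted p under 0.05 in limma, compared with 3.22% of 18360 genes, and 0.0654% of all genes passed the adjusted threshold. In HFD-STZ mice the 2 genes at this level were Prx and Pllp, compared with 6.69% of 17963 genes, while 0% of all genes passed the adjusted threshold. Prx stood at 18.38, 18.38, 18.36, 18.09 and 18.18 at 16 weeks and ran from 17.77 through 17.98 to 18.21 at 24 weeks. Its difference was -0.31 (SE 0.11), with 6 of 8 later samples below all earlier ones, an exact permutation p = 0.00855 and an adjusted p = 0.315. Pllp differed by -0.26 (SE 0.11; exact permutation p = 0.0466; adjusted p = 0.367). Pmp22 differed by -0.37 (SE 0.18; exact permutation p = 0.0124; adjusted p = 0.414), and Ncmap had the difference closest to 0, at -0.075 (95% interval -0.37 to 0.22).

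The size of the difference with age was not shown to depend on treatment. A test of whether it differed between SD, HFD and HFD-STZ mice passed for 0 of the 8 genes and for 0 of 18032 genes in limma (adjusted p from 0.96 to 0.997 for the 8), and the unadjusted p of the 8 genes was 0.301 or more. The 3 treatments share no samples. They were therefore put into 1 fit with treatment and age as terms, a fit chosen after the separate ones had been seen, which set 23 samples of 24 weeks against 17 of 16 weeks. The ages are different mice. In HFD and HFD-STZ mice the later samples also had longer on the high-fat diet, and in HFD-STZ mice longer after STZ. Age, length of exposure and time of collection cannot be told apart in this fit. In SD mice, which had no such exposure, all 8 means were lower at 24 weeks but 0 of the 8 genes passed in their separate comparison.

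In this fit, 6 of the 8 genes fell between 16 and 24 weeks at an adjusted p under 0.05, compared with 3.3% of the 18032 genes tested that were called lower (4.57% in either direction). Pmp22 fell the most, by 0.44 on the log2 scale (SE 0.08; to 0.736 times the earlier level; adjusted p = 0.000938), and stood at rank 67 by p-value among all genes. Mal fell by 0.35 (SE 0.07; 0.785 times; adjusted p = 0.00391) and Pllp, which shares 54.2% of its exonic bases with Gm45767, by 0.26 (SE 0.06; adjusted p = 0.0114). Of the genes of adhesion and of non-compact myelin, Prx fell by 0.22 (SE 0.06; adjusted p = 0.0223), Mag by 0.23 (SE 0.07; adjusted p = 0.0397) and Cnp by 0.2 (SE 0.06; adjusted p = 0.0495). Mbp, at -0.23 (SE 0.08; adjusted p = 0.0986), and Ncmap, at -0.19 (SE 0.08; adjusted p = 0.138), did not pass. The median difference was -0.23 over the 8 genes and 0.013 over all genes tested. Leaving out each of the 40 samples in turn kept the calls of Pmp22, Mal, Pllp and Prx in all 40 fits, that of Mag in 25 (adjusted p from 0.0177 to 0.0829) and that of Cnp in 15 (0.0274 to 0.0903). With the 8 runs of consecutive library numbers in the sample titles as a covariate, 7 of the 8 passed, compared with 5.86% of all genes. Mbp was among them at -0.30 (adjusted p = 0.0181). Without the 2 of the 3 libraries least like the rest that were in this fit, the same 6 genes passed, compared with 5.69% of all genes. Pmp22 was then at -0.41 (adjusted p = 0.00138).

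**Figure D2:**
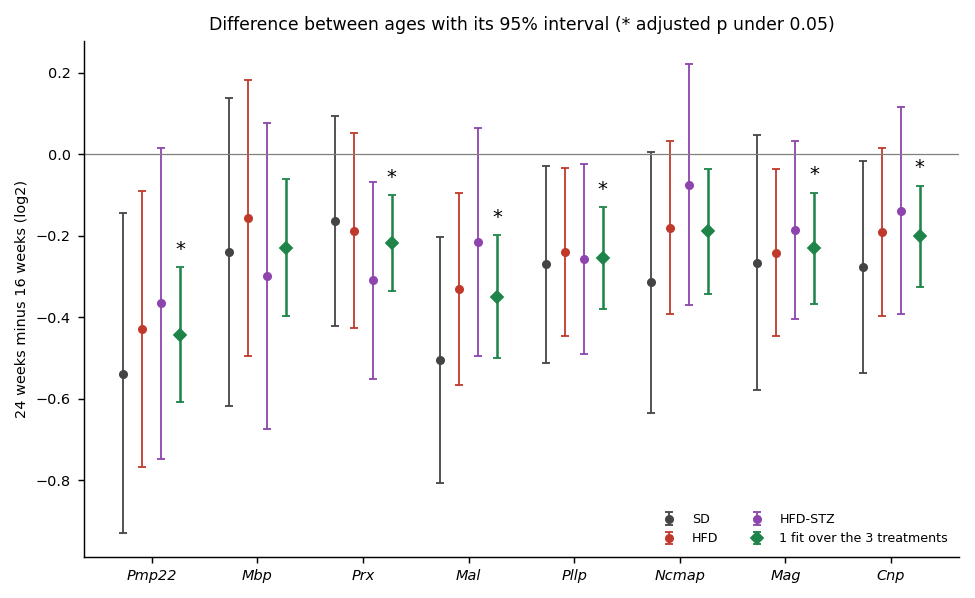
Difference between 24 and 16 weeks (log2, with its 95% interval) for each myelin gene in SD, HFD and HFD-STZ mice separately and in 1 fit over the 3 treatments. All points lie below 0, and stars mark the 6 genes with an adjusted p under 0.05 in the single fit, where Pmp22 (-0.44) and Mal (-0.35) lie lowest.

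Markers of other cells also differed between the ages. The adipocyte score was 10.55 ± 1.77 in SD mice at 16 weeks (range 8.36 to 12.54) and 12.42 ± 0.94 at 24 weeks (10.56 to 13.31), with an exact permutation p = 0.0272. In HFD-STZ mice it was 11.73 ± 1.42 (9.52 to 13.31) and 13.21 ± 1.11 (11.4 to 14.26; exact permutation p = 0.0567). In HFD mice, where 4 myelin genes were at an unadjusted p under 0.05, the score was 12.97 ± 0.82 (11.9 to 14.25) and 13.22 ± 1.18 (11.74 to 14.45; exact permutation p = 0.646). In the fit over the 3 treatments, 6 of 6 adipocyte markers were higher at 24 weeks, of which Lep rose by 1.81 (adjusted p = 0.014) and Cidec by 1.32 (adjusted p = 0.0461), and Plin1 was at 1.14 (adjusted p = 0.057). With the adipocyte score as a covariate, 1 of the 8 myelin genes passed, Pmp22 at -0.33 (adjusted p = 0.0419), and Mal was at -0.22 (adjusted p = 0.178), while 0.482% of all genes passed.

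All 5 red blood cell markers were also higher at 24 weeks, at a median difference of 1.18 with 0 of 5 called (5 of 5 at an unadjusted p under 0.05), and the red blood cell score of SD mice was 7.6 ± 0.76 (6.72 to 8.79) at 16 weeks and 9.9 ± 1.31 (7.01 to 11.06) at 24 weeks (exact permutation p = 0.0101). The 6 muscle markers were all higher at a median of 1.42, with 0 called (2 at an unadjusted p under 0.05). With the muscle score as a covariate the same 6 myelin genes passed, compared with 5.38% of all genes. Macrophage markers were higher in 5 of 5 cases (median 0.375), of which Cd68, a lysosomal protein, rose by 0.53 (adjusted p = 0.0444). Endothelial, and fibroblast and perineurial markers had medians of 0.01 and 0.111, with 0 of 5 called in each (0 and 1 at an unadjusted p under 0.05). The part of the red blood cell and macrophage markers in the result was not tested.

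Markers of the Schwann lineage itself (a list of 5 that includes Sox10, S100b, Erbb3 and Cdh19 and overlaps the lists of myelin genes) were lower at 24 weeks in 5 of 5 cases, with a median difference of -0.208. Of the 5, 1 passed the adjusted threshold, whereas Erbb3, a neuregulin receptor, was at -0.22 (adjusted p = 0.0508) and Cdh19 at -0.21 (adjusted p = 0.0566). The mean of the 5 in SD mice was 14.75 ± 0.12 (14.56 to 14.87) at 16 weeks and 14.5 ± 0.23 (14.07 to 14.76) at 24 weeks (exact permutation p = 0.0427). Markers of non-myelinating Schwann cells were lower in 4 of 5 cases, of which Cdh2 fell by 0.27 (adjusted p = 0.0023) and Scn7a by 0.23 (adjusted p = 0.0168). When each sample was centred on the 5 lineage markers, which shifts every gene by 0.2 and moves the median of all genes to 0.21, Pmp22 at -0.24 (adjusted p = 0.0021) and Mal at -0.15 (adjusted p = 0.0168) still passed. Relative to the lineage markers the other 6 genes lay between -0.05 and 0.01, with adjusted p-values of 0.189 or more, and 39.3% of all genes passed on this scale.

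Genes that work with the 8 were read from the same fit. Among 25 further genes of peripheral myelin and of Schwann cell junctions, 24 were tested, of which 10 fell and 0 rose, with a median difference of -0.249. Pmp2, a fatty acid-binding protein of myelin, fell by 0.55 (adjusted p = 0.000547), Gldn, gliomedin of the nodes, by 0.35 (adjusted p = 0.00232) and Itga6, a laminin receptor subunit, by 0.33 (adjusted p = 0.00157). Of 22 genes of cholesterol and myelin glycolipid synthesis, 19 fell and 0 rose, with a median of -0.432. Ugt8a, which makes galactosylceramide, fell by 0.6 (adjusted p = 2.03e-07), and Idi1 of the isoprenoid pathway fell by 0.57 (adjusted p = 1.78e-06). In HFD mice alone, 6 of these 22 genes were among the 12 genes of all that passed, with Lss, lanosterol synthase, at -0.41 (adjusted p = 0.022) and Ugt8a at -0.56 (adjusted p = 0.0288).

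Regulators of myelin genes were read in the same way, and of 15 tested 0 passed in limma, 4 were lower and 0 higher at an unadjusted p under 0.05, and the median difference was -0.058. Egr2 was at -0.21 (adjusted p = 0.136), its co-factor Nab2 at -0.11 (adjusted p = 0.164) and Zeb2 at -0.13 (adjusted p = 0.177). Of 15 genes of repair and immature Schwann cells, 12 were tested and 0 passed, 3 being higher and 2 lower at an unadjusted p under 0.05, with a median of 0.132. The 3 with the smallest p-values were Artn at 0.39 (adjusted p = 0.0654), Id2 at 0.26 (adjusted p = 0.0865) and Jun, a transcription factor of nerve repair, at 0.2 (adjusted p = 0.0887). Of the 5 oligodendrocyte markers, Mobp at -0.59 (adjusted p = 0.00602) and Hapln2 at -0.63 (adjusted p = 0.00116) fell, and the other 3 were below the limit for testing.

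Whether the diet or T2D model altered the myelin genes was asked within each age. At 16 weeks all 8 genes had lower means in HFD than in SD mice, with differences from -0.26 (Mbp and Mag) to -0.10 (Pllp) on the log2 scale, and 0 of 8 passed, where 0.00557% of 17962 genes did. Mag, the one gene at an unadjusted p under 0.05 (8.55% of all genes were), stood at 14.13, 14.15, 13.81, 13.66 and 13.44 in SD mice and ran from 13.44 through a median of 13.53 to 13.79 in HFD mice. The SD samples were widely spread, and all 7 HFD samples lay below their median, 1 of them below the lowest. The difference was -0.26 (SE 0.12; exact permutation p = 0.072; adjusted p = 0.572). In these groups the adipocyte score was 10.55 ± 1.77 (8.36 to 12.54) in SD and 12.97 ± 0.82 (11.9 to 14.25) in HFD mice (exact permutation p = 0.00631), with 6 of 6 markers higher, and the red blood cell score was 7.6 ± 0.76 and 10.32 ± 1.47 (exact permutation p = 0.00505). With the adipocyte score as a covariate the difference in Mag turned to 0.11 (adjusted p = 0.689). In HFD-STZ mice of 16 weeks the differences from SD ran from -0.21 for Mal and Pmp22 to 0.03 for Prx, and from HFD mice they lay between -0.02 and 0.16, with 0% of all genes called in either. In limma 0 of 8 genes were at an unadjusted p under 0.05 in these 2 comparisons, where 8.41% and 4.88% of all genes were. Prx in HFD-STZ against HFD mice had an exact permutation p = 0.0417, and an adjusted p = 0.987 in limma. Both models were compared with the same 5 SD samples.

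At 24 weeks, all 8 genes again had lower means in HFD than in SD mice, with differences from -0.24 to -0.05 and 0 of 8 called, compared with 0.121% of 18191 genes, and 0 at an unadjusted p under 0.05 (9.05% of all genes). Mag showed the difference farthest from 0, at -0.24 (95% interval -0.49 to 0.02; exact permutation p = 0.0883; adjusted p = 0.57), with all 7 HFD samples below the SD median. In HFD-STZ mice, Mbp was at -0.23 against SD (95% interval -0.54 to 0.08; exact permutation p = 0.0465; adjusted p = 0.832), with all 8 samples below the SD median, while Mal was at 0.08 and Ncmap at 0.04. None of the 8 genes was called in that comparison, compared with 0.0336% of 17846 genes, and 0 were at an unadjusted p under 0.05 in limma (5.99% of all genes). HFD-STZ differed from HFD mice by -0.05 (Mbp) to 0.18 (Mag), with 0 of 8 called or at an unadjusted p under 0.05 in limma, compared with 0% and 5.59% of all genes. The adipocyte score at this age was 12.42 ± 0.94 in SD, 13.22 ± 1.18 in HFD and 13.21 ± 1.11 in HFD-STZ mice. The 95% interval for Pmp22 in HFD against SD mice ran from -0.48 to 0.26, so that equal levels were not shown.

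**Figure D3:**
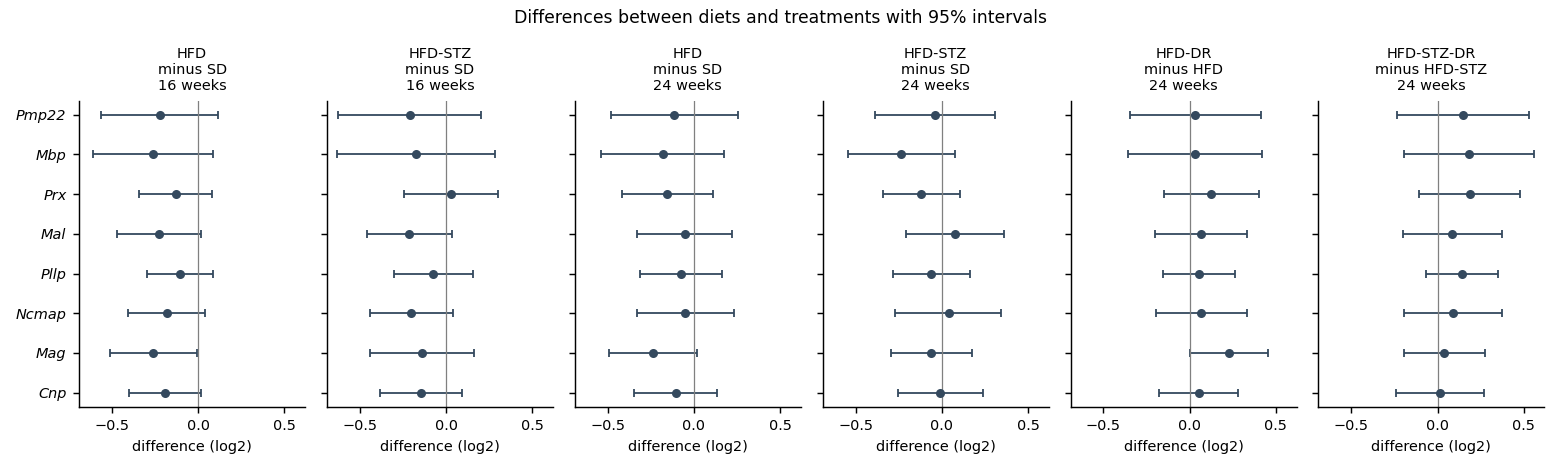
Differences (log2, with 95% intervals) in the 8 myelin genes between the models and SD mice at 16 and 24 weeks and between reversal and continued high-fat diet at 24 weeks. All 8 points lie below 0 for HFD minus SD at both ages and above 0 in both reversal panels, and only the intervals of Mag in HFD minus SD at 16 weeks and HFD-DR minus HFD exclude 0.

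Dietary reversal asks whether values return towards those of SD mice. All 8 genes were higher in HFD-DR than in HFD mice, by 0.03 to 0.23, and reversal in STZ-treated mice (HFD-STZ-DR against HFD-STZ) gave differences of 0.015 to 0.19, also all positive. None of the 8 was called in either (0 of 8), where 0.0108% and 0.084% of all genes were, and in the STZ-treated mice 0 of 8 reached an unadjusted p under 0.05 in limma, where 6.48% of all genes did. Mag was at 12.94, 13.4 and 13.56 (lowest, median, highest) in HFD mice and at 13.3, 13.62 and 13.83 in HFD-DR mice. The 2 groups overlapped over part of their range, and the difference was 0.23 (SE 0.11; exact permutation p = 0.0629; adjusted p = 0.737). It was the only one at an unadjusted p under 0.05 in limma among the 8 (6.72% of all genes). The HFD samples are those of the comparison with SD mice, so a low HFD group moves both comparisons of Mag. HFD-DR and SD mice differed by -0.01 in Mag (95% interval -0.25 to 0.23) and by -0.15 (Mbp) to 0.02 (Ncmap) over the 8 genes, and HFD-STZ-DR and SD mice by -0.05 (Mbp) to 0.16 (Mal), with 0 of 8 called and 0% of all genes in both. At an unadjusted p under 0.05 in limma there were also 0 of 8, compared with 5.14% and 9.16% of all genes. In the STZ-treated mice not every gene moved towards SD mice. Mal and Ncmap were 0.08 and 0.04 above SD mice in HFD-STZ mice and 0.16 and 0.13 above in HFD-STZ-DR mice. Pmp22 and Pllp went from -0.04 and -0.06 to 0.11 and 0.08, and Prx also crossed the level of SD mice, from -0.12 to 0.07. Mbp (-0.23 to -0.05) and Mag (-0.06 to -0.02) came closer to SD mice. Cnp was level with SD mice both without and with reversal (-0.008 and 0.007). The 8 genes varied together between samples, as described further on, so a shared sign is not 8 separate results. HFD-STZ-DR and HFD-DR mice differed by -0.01 (Mag) to 0.19 (Pmp22), again with 0 of 8 called or at an unadjusted p under 0.05 in limma, compared with 0% and 3.58% of all genes. The adipocyte score was 11.99 ± 1.18 in HFD-DR against 13.22 ± 1.18 in HFD mice, and 10.97 ± 1.1 (8.88 to 12.05) in HFD-STZ-DR against 13.21 ± 1.11 (11.4 to 14.26) in HFD-STZ mice (exact permutation p = 0.003). In HFD-DR compared to HFD mice, 6 of 6 muscle markers were higher, with scores of 12.32 ± 2.13 (9.58 to 15.36) and 9.8 ± 2.75 (7.27 to 15.02; exact permutation p = 0.0787). Macrophage markers were lower in 5 of 5 cases, with scores of 10.74 ± 0.24 (10.42 to 11.11) and 11.3 ± 0.67 (10.45 to 12.17; exact permutation p = 0.0618). In limma 0 of 6 and 0 of 5 were called, and 4 muscle and 2 macrophage markers were at an unadjusted p under 0.05. The part of the muscle and macrophage markers in the difference in Mag was not tested. The difference in Mag with reversal changed by -0.19 with STZ (SE 0.16; unadjusted p = 0.239 in limma). In this test, and in the 2 of whether the HFD or the HFD-STZ difference from SD mice changed with age, 0 of 8 genes passed. Of all genes 0 passed as well, with 18161, 18087 and 17871 tested in that order. At an unadjusted p under 0.05 in limma there were 0 of 8 in each, compared with 1.71%, 1.67% and 4.68% of all genes.

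Samples that were low for a myelin gene tended to be low for the others. After the group mean was subtracted, the correlation between 2 of the 8 genes over the 53 samples had a median r of 0.77 over the 28 pairs. It was highest for Pmp22 and Mal (r = 0.96) and above 0.8 in 14 of the 15 pairs among Pmp22, Mal, Cnp, Pllp, Ncmap and Mag, and lowest for Prx and Ncmap (r = 0.43). Mbp and Prx stood apart from the other 6, with median correlations of 0.6 and 0.61, and correlated with each other at 0.68. These correlations are a description, as the values of a sample share 1 library and its scaling. In 3 groups a single sample was the lowest for all 8 genes, namely SD replicate 5, HFD-STZ replicate 1 and HFD-STZ-DR replicate 4 at 24 weeks. Their adipocyte scores were 13.24, 14.26 and 11.32, and their muscle scores 17.11, 7.29 and 16.48, those of the SD and HFD-STZ-DR samples being the highest muscle scores of the series.

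**Figure D4:**
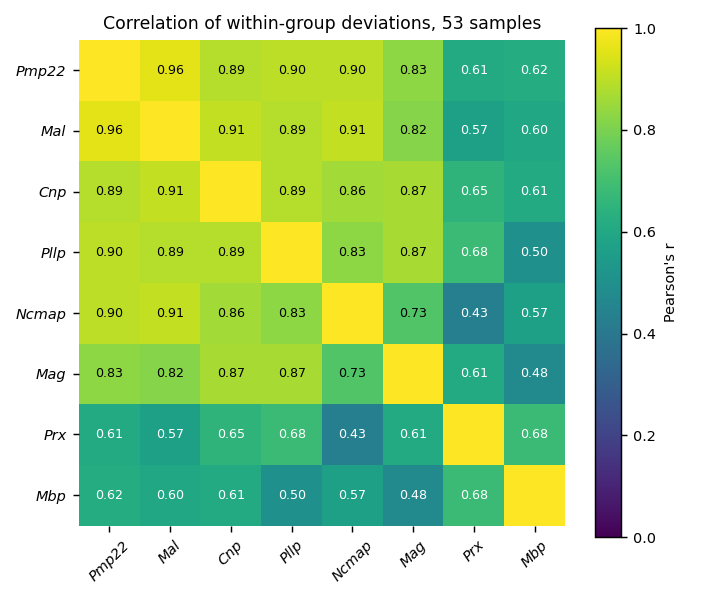
Pearson's r between the within-group deviations of each pair of the 8 myelin genes over 53 samples. Pmp22, Mal, Cnp, Pllp, Ncmap and Mag form a block with r from 0.73 to 0.96, and the rows of Prx and Mbp lie between 0.43 and 0.68.

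Deviations of the 8 genes were compared with those of 3 marker scores, 24 relations in all, with p-values from 100000 permutations adjusted for the 24 relations by the Benjamini-Hochberg method. Against the adipocyte score, all 8 were negative, from r = -0.38 for Mbp (Spearman's rho = -0.4; permutation p = 0.0049; adjusted p = 0.0074) to r = -0.65 for Mag (rho = -0.7; permutation p = 1e-05, the smallest that these permutations can give; adjusted p = 2.4e-05). Without the 2 samples farthest from the median score the values were -0.42 and -0.64. Against the score of the Schwann lineage markers all 8 were positive, from r = 0.55 for Mbp (rho = 0.51; permutation p = 3e-05; adjusted p = 5.5e-05; 0.47 without 2 samples) to r = 0.89 for Mal (rho = 0.86; permutation p = 1e-05; adjusted p = 2.4e-05; 0.86 without 2 samples). Against the muscle score r lay between -0.23 for Mbp (rho = -0.15; permutation p = 0.1; adjusted p = 0.14; -0.25 without 2 samples) and 0.01 for Pllp (rho = 0.1; permutation p = 0.95; adjusted p = 0.95; 0.04 without 2 samples). Genes and scores of a sample come from 1 library, so these relations do not separate cell content from expression per cell.

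**Figure D5:**
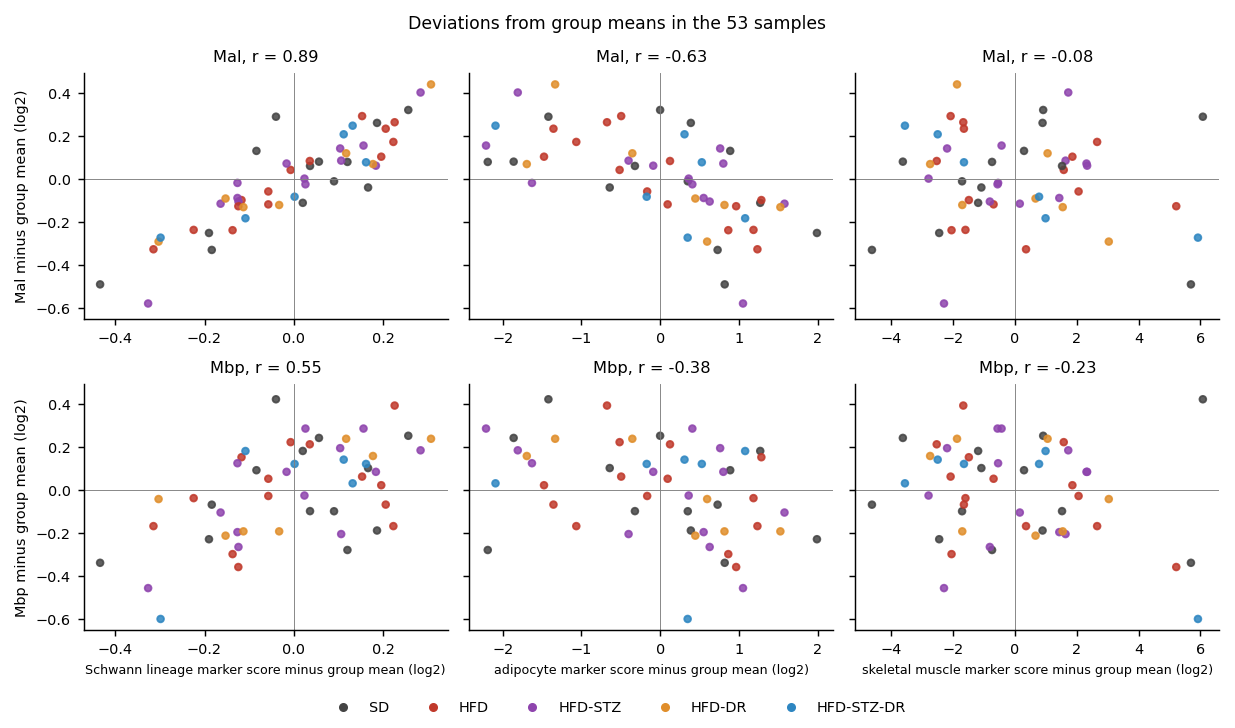
Deviations from the group mean (log2) of Mal (upper row) and Mbp (lower row) in the 53 samples, against the deviations of the scores of Schwann lineage, adipocyte and skeletal muscle markers, coloured by treatment. Mal follows the Schwann lineage score closely (r = 0.89) and runs against the adipocyte score (r = -0.63), and Mbp does both more loosely (r = 0.55 and -0.38).

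The genes most like the mean of the 8, by Pearson's r of within-group deviations over 53 samples among 18061 genes, were Glod4 (0.939), Fa2h (0.938), Tnfaip8l1 (0.929), Rasgef1c (0.927) and Chn2 (0.923). Fa2h encodes the fatty acid hydroxylase that modifies myelin galactolipids, and it was lower by 0.44 (adjusted p = 7.67e-05) at the later age in the fit over the 3 treatments.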

How the data were processed

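Bulk RNA-seq of sciatic nerve from 53 male mice was analysed. Reads of low quality and adapters were removed by the authors, who aligned the rest with HISAT2 to the mouse genome mm10 and counted them per gene with featureCounts. FPKM and DESeq2 are also named per the labels, with versions not given in the sources used here. The deposited values are log2 expression per gene and sample, 49568 genes by symbol, and the authors' scaling behind them is not named. The labels name Trizol and a TruSeq mRNA kit, whereas the paper names another RNA kit and SMART-Seq v4, and which was used was not settled here. No count of reads is given, so the depth per sample is unknown and no counting interval could be set. P-values measure the spread between samples and no counting error. In limma (empirical Bayes with a trend), each gene's variance is drawn towards that of genes of similar level. SEs, intervals and p-values from limma therefore rest partly on other genes, whereas exact permutation uses only the values compared. For Pmp22 in the single fit of age, the SE was 0.082, and 0.071 without the trend. For Pmp22 between ages in HFD mice, limma gave an unadjusted p = 0.0167 and exact permutation p = 0.00175.

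Samples were grouped by the characteristics in the labels. Each pair of groups was compared on the log2 values with limma 3.58.1 in R 4.3.3 (empirical Bayes with a trend, 2-sided), adjusted by the Benjamini-Hochberg method over all genes tested, with calls at an adjusted p under 0.05. Genes with a mean log2 value under 3.32 in the samples compared, and 25 genes that exceeded 22 in any sample, were not tested, and all 8 myelin genes passed. Fold changes are on the deposited log2 scale, with no pseudocount added. Single genes and marker scores (means of the markers' log2 values) were also compared by exact 2-sided permutation of the samples, in Python 3.11.15 with scipy 1.17.1, numpy 2.4.6 and matplotlib 3.10.9. The single fit of age over 3 treatments, and the omission of the 3 libraries least like the rest, were chosen after seeing the data. The fits were tested on simulated data first.

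The 8 genes and all gene lists were chosen with earlier results of these data known. Members were named where their unadjusted p was under 0.05 or to complete a comparison, at most 3 genes were named per list by smallest p, together with the 5 genes most like the mean of the 8, and Sox10, Mog and Opalin, outside this rule, were named to check the tissue. Alternatives changed the filter, the variance prior, the scaling, the samples in the fit and the covariates. Positions are from GENCODE M21 and promoters from RefSeq. Protein sequences are not shown, and single results of some listed genes are not reported here.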

Additional observations from a re-analysis of the deposited data

Results flagged for a closer look

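Each of the 8 genes was examined in each of the 8 groups for a sample far from the others (Dixon's criterion at 95%), and 3 of 64 sets held one, where chance gives about 1 in 20. Mbp in HFD-STZ-DR replicate 4 at 24 weeks was 19.32, against 19.95 to 20.1 in the other 5 samples, a gap of 0.811 of the whole range against a critical value of 0.625. Prx in the same sample was 17.57, against 18.24 to 18.32, a gap of 0.894 of the range. This sample was the lowest of its group for all 8 genes and is among the 3 libraries least like the rest, with a skeletal muscle score of 16.48. Prx in HFD replicate 4 at 24 weeks was 17.46, against 17.9 to 18.16 in the other 6 samples, a gap of 0.631 of the range against a critical value of 0.568. That sample was the lowest of its group for 6 of the 8 genes and had the highest adipocyte score of the series, 14.45.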

How the results depend on the processing

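No paired analysis was run, as the labels give the groups no shared replicate numbers. Samples could have been matched by the run of library numbers, whose meaning the labels do not give. The run was fitted as a covariate instead, with all 8 groups together and in the single fit of age. The main comparisons of 2 groups leave it out. In the 14 comparisons of 2 groups, 0 of the 8 genes passed under every alternative run, apart from 24 against 16 weeks in SD mice, where all 8 groups fitted together with the run of library numbers called 2.0 genes, Pmp22 and Mal. Leaving out each sample in turn gave 0.0 to 0.0 genes called in each of the 14, and 4.0 to 6.0 in the single fit of age. In that fit, centring on the Schwann lineage markers gave 2.0 genes called and took Cnp to 0.0 and Ncmap to 0.012, and the adipocyte score as a covariate gave 1.0, while the other alternatives gave 4 to 7. The same covariate took Mag in HFD against SD mice at 16 weeks to 0.112. The cause was not tested. Of the other values for named genes under these settings, 188 kept their direction and side of the threshold, 11 no longer passed and 4 newly passed. The number of all genes called in that fit was 824, and ran from 87 with the adipocyte score to 7094 with centring on lineage markers, with 1943 after median centring and 409 without a filter on low values. In HFD against SD mice at 24 weeks it was 22, and 107 with the adipocyte score, 98 with all groups and the run, and 62 with all groups. In SD mice with age it was 0, and 45 with all groups and 122 with the run added. Depth is unknown, so values near the limit of testing have no stated precision, and 5 to 8 samples per group limit each comparison.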
